A study of Homo sapiens with 6 samples.

Results

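The genes described here encode 10 RNA-binding proteins that shape messenger RNA in neurons: NOVA1, NOVA2, ELAVL2, ELAVL3, ELAVL4, RBFOX1, RBFOX3, PTBP1, PTBP2 and SRRM4. They are 10 of the 47470 genes listed in the count data. NOVA2 was selected on the rise of its counts with treatment, so its own change is given as a description without a test, and the other 9 were taken as its functional class. RNA-seq was performed on HEK293T cells, which derive from human embryonic kidney and express the large T antigen of SV40. They were left untreated or kept for 1 day with valproic acid (VPA) at 1 mM, an antiepileptic drug that inhibits histone deacetylases. There were 3 strand-specific mRNA libraries per condition, prepared from extracted total RNA. The untreated libraries are labelled WT, no engineered change is named for either condition, and the methods describe triplicate experiments without saying whether the RNA libraries came from separate cultures, so the p-values measure the spread between these libraries, which may be technical. In bulk RNA, more cells that express a gene and more RNA per cell cannot be told apart.

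Neuronal splicing programmes are known to rest on a small number of RNA-binding proteins. The NOVA proteins bind clusters of pyrimidine-CA-pyrimidine motifs and steer alternative exons of synaptic transcripts, the RBFOX proteins bind GCAUG, and SRRM4 promotes the inclusion of neuronal microexons. The ELAVL (Hu) proteins bind AU-rich and U-rich sequence and stabilise transcripts. PTBP1 holds neuronal exons back in non-neuronal cells, among them an exon of its paralog PTBP2, which takes its place as neurons differentiate. Counts per gene, as used here, give the amount of each transcript and not its splicing.

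The counts on genes totalled 18622267 to 18828495 per library, so that 1 count stood for about 0.053 CPM, the count scaled to the library's total on genes. Replicate libraries were further apart than sampling noise (chi-square per gene 1.70 to 5.30), so each entered as 1 replicate. Of the 47470 genes, 15298 had enough counts to be tested with edgeR's quasi-likelihood test, which gave a biological coefficient of variation of 3.83%, and adjusted p-values are by the Benjamini-Hochberg method over all 15298. A gene was called up-regulated or down-regulated if the adjusted p was under 0.05 and the log2 fold change was 1 or more in either direction. Normalized counts are scaled for library composition (TMM) and brought to the mean library, and every fold change is VPA-treated over untreated. Of the embryonic kidney markers, 7 of 8 were counted well enough to be tested, and PAX8 had 2 counts in all libraries together. As 9 of 10 neuron markers were also counted well enough, this does not check the cell label. The deacetylase response gene CDKN1A was higher in the VPA-treated libraries, with a log2 fold change of 0.66 (edgeR adjusted p = 3.33e-07).

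After 1 day of VPA, transcripts of the NOVA genes and of RBFOX3 were more abundant and those of PTBP1 less abundant, whereas ELAVL3, ELAVL4, RBFOX1 and SRRM4 stayed near the limit of detection in both conditions. Of the 10 genes, 6 could be tested. Of these, 2 were called up-regulated (NOVA2 and RBFOX3), against 12.0% of all tested genes, and 0 were called down-regulated, against 0.503% of all. At the adjusted p alone, 3 of the 6 were higher (background 32.9%) and 2 were lower (background 30.0%), with ELAVL2 as the remaining gene. In normalized counts, all VPA-treated libraries lay above all untreated ones for 3 of the 6 genes (background 34.8%) and below them for the other 3 (background 31.0%). The median log2 fold change of the 6 was 0.27, beside 0.0058 over all tested genes. NOVA2 is in these counts and was chosen for its rise, and a gene can pass the count filter through the condition in which it is high, so the counts over the 6 are a description.

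**Figure D1:**
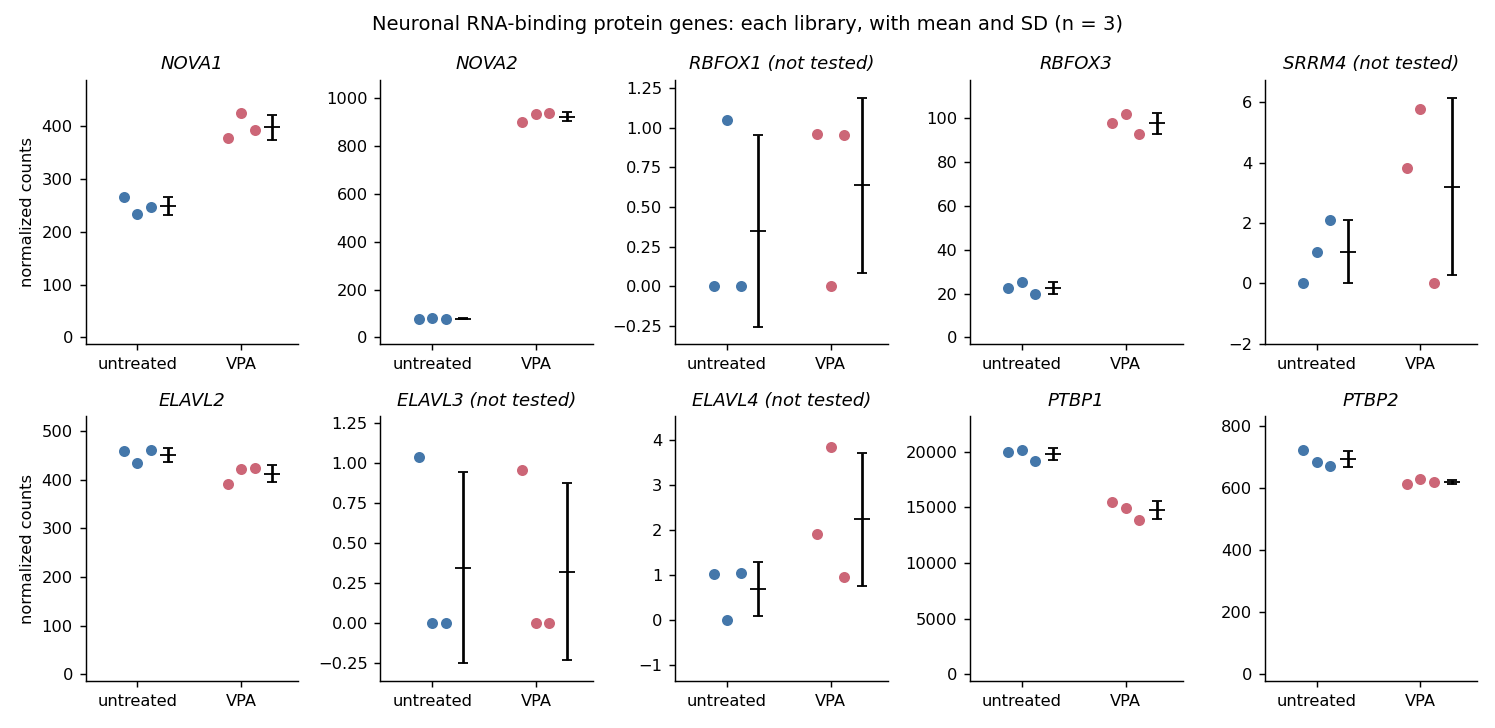
Normalized counts (y axis, linear, each panel with its own scale) of the 10 genes in the 3 untreated (blue) and 3 VPA-treated (red) libraries, with the mean and SD of each condition in black. NOVA1, NOVA2 and RBFOX3 lie higher in all 3 VPA-treated libraries. PTBP1, PTBP2 and ELAVL2 lie lower in all 3, which for PTBP2 and ELAVL2 depends on the scaling of the libraries. ELAVL3, ELAVL4, RBFOX1 and SRRM4 have 0 to 6 counts in every library.

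NOVA2, a splicing regulator of cortical and vascular development, was counted 75, 76 and 72 times without VPA and 940, 970 and 979 times with it. The groups are far apart and the libraries within each lie close together. In normalized counts the mean went from 77.6 ± 1.99 to 924 ± 20.3 (SD, n = 3 each), an 11.9-fold difference and a log2 fold change of 3.57 (SE 0.077). NOVA2 ranked 101 by log2 fold change among the 15298 tested genes, but 1 among the 7242 genes whose mean reached 500 normalized counts. Its own mean over both conditions lies just above that limit, and only through its counts with VPA, so the second rank is a description that rests on where the limit was set. The plot of level against change shows this position.

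**Figure D2:**
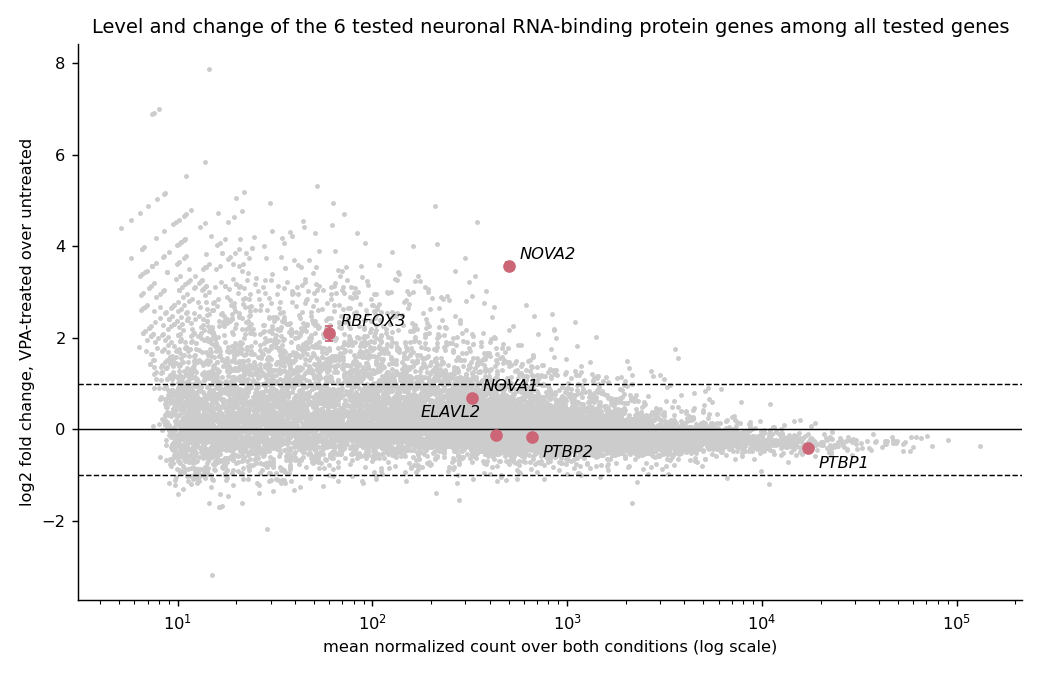
Log2 fold change (y axis) against the mean normalized count over both conditions (x axis, log scale) for all 15298 tested genes in grey and the 6 tested neuronal RNA-binding protein genes in red with their SE, which for most is smaller than the point. Dashed lines mark a log2 fold change of 1 in size; no gene with a mean of 500 or more stands above NOVA2, and PTBP1 is the gene with the most counts of the 6.

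NOVA1, the paralog first described as a neuronal antigen in paraneoplastic disease, was counted 258, 223 and 235 times without and 394, 441 and 411 times with VPA. All VPA-treated libraries exceeded all untreated ones. The normalized mean rose from 249 ± 17.0 to 399 ± 24.0, a log2 fold change of 0.68 (SE 0.078, edgeR adjusted p = 1.41e-07), which is below the fold change threshold. Both NOVA genes therefore moved the same way, by unequal amounts. NOVA2 made up 22.5%, 25.4% and 23.5% of the counts of the pair without VPA and 70.5%, 68.7% and 70.4% with it. The larger contributor was thus NOVA1 in every untreated library and NOVA2 in every VPA-treated library. The log2 ratio of NOVA2 to NOVA1 within a library, which does not depend on how libraries are scaled, was higher by 2.89 with VPA, and the summed normalized counts of the pair went from 327 ± 16.3 to 1323 ± 41.0, 4.05-fold.

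The promoters of the NOVA genes and of PTBP1 are shown because these genes moved in opposite directions and each has a RefSeq window that starts at the annotated gene start. Each line gives the 250 bases upstream of that start on the strand of the gene (RefSeq, GRCh38.p14), with GC boxes, GGGCGG on either strand, in capitals.
NOVA1: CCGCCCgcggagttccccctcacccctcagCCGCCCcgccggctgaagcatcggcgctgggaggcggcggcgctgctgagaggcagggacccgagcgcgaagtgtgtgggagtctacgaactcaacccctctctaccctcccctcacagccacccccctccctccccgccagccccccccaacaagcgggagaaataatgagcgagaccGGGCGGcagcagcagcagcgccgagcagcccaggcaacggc
NOVA2: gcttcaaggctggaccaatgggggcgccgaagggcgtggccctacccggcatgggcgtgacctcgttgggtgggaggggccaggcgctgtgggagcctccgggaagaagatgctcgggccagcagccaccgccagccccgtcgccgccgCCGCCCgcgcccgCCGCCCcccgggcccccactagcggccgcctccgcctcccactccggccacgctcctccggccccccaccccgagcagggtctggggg
PTBP1: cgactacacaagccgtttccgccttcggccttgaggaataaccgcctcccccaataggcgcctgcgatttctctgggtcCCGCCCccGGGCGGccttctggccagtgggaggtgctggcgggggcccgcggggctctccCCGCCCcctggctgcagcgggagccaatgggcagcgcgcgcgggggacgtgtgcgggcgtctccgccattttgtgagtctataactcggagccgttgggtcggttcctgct
The windows are chr14:26598034-26598283 on the minus strand for NOVA1, chr19:45973866-45974115 on the minus strand for NOVA2 and chr19:797202-797451 on the plus strand for PTBP1. All 3 are rich in GC, at 71.6%, 78% and 69.2%, with 23, 27 and 26 CpG dinucleotides, where the median over 35114 RefSeq windows of the same length is 58% and 11. They hold 3, 2 and 3 GC boxes. Whether these features bear on the direction of change was not tested. Windows were found for 9 of the 10 genes, all but ELAVL3, and 7 of the 9 hold a GC box, as do 42.6% of all windows. The TATA box TATAAA is in 2 of the 9, those of ELAVL2 and RBFOX3, and in 10.7% of all windows. Not all of the 9 windows lie at the annotated gene start. The distance from it was 24361 bases for ELAVL2, 6596 for RBFOX3, 779303 for RBFOX1 and 854 for PTBP2. Both TATA boxes and some of the GC boxes come from these displaced windows. TTCAGCACC and GACAGCGCC, from the left and the right part of the element bound by the repressor REST, were searched on both strands and are in 0 of the 9 windows, and in 0.288% and 0.416% of all. The E-box CACGTG is in 0 of the 9 and in 6.35% of all. RefSeq lists 12 windows for RBFOX3, 3 for NOVA1 and 2 for PTBP1, and the counts do not show which start was used.

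NOVA2 lies at chr19:45933734-45973865 on the minus strand (GRCh38.p14). Among the 3 nearest tested genes on each side, changes were mixed. On the side of lower coordinates, MYPOP, 31121 bases away, had a log2 fold change of 0.24 (adjusted p = 0.00956), IRF2BP1 of -0.20 (adjusted p = 0.00529) and FOXA3 of 1.90 (adjusted p = 1.89e-08), all by edgeR. On the other side, CCDC61, the nearest gene at 21602 bases, had a log2 fold change of -0.042 (adjusted p = 0.792), IGFL4 of 1.60 (adjusted p = 0.000135) and PPP5C of -0.15 (adjusted p = 0.00177). FOXA3, an endoderm transcription factor, had 19.1 normalized counts on average in untreated and 72.0 in VPA-treated libraries, far fewer than NOVA2 with VPA.

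Among the 5 genes whose pattern over the 6 libraries was nearest to that of NOVA2, by Euclidean distance of log2 normalized counts centred on the untreated mean, were PRKCB (distance 0.279), INSYN2B (0.347), NMRK2 (0.476) and FSTL4 (0.488). PRKCB encodes protein kinase C beta. PRKCB was counted 45, 39 and 42 times without and 505, 514 and 500 times with VPA, a log2 fold change of 3.47. Those of INSYN2B, FSTL4 and NMRK2 were 3.89, 3.57 and 4.32. These genes were picked for their likeness to NOVA2, so their changes are a description.

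RBFOX3, whose protein is the neuronal nuclear antigen NeuN, was counted 22, 24 and 19 times in untreated and 102, 106 and 97 times in VPA-treated libraries. The groups do not overlap, and all 3 VPA-treated values are several times the untreated ones. The normalized mean rose from 22.6 ± 2.59 to 97.6 ± 4.62, a log2 fold change of 2.10 (SE 0.16, edgeR adjusted p = 3.58e-10). RBFOX1, which is expressed in neurons and muscle, was counted 0, 1 and 0 times without and 1, 0 and 1 times with VPA and could not be tested. RBFOX2, the family member that many tissues express, supplied nearly all counts of the family, 99.5% untreated and 98.0% with VPA, and its log2 fold change was 0.046 (SE 0.040, edgeR adjusted p = 0.324). RBFOX3 therefore remained a small part of the family, at 0.477% ± 0.052 of its counts without and 1.96% ± 0.094 with VPA, and the summed family was at 1.05 times its untreated level. The log2 ratio of RBFOX3 to RBFOX2 was 2.04 higher with VPA, with p = 0.1 in a two-sided exact permutation test, the smallest p that 3 libraries against 3 allow (adjusted p = 0.233 over 7 ratios).

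**Figure D3:**
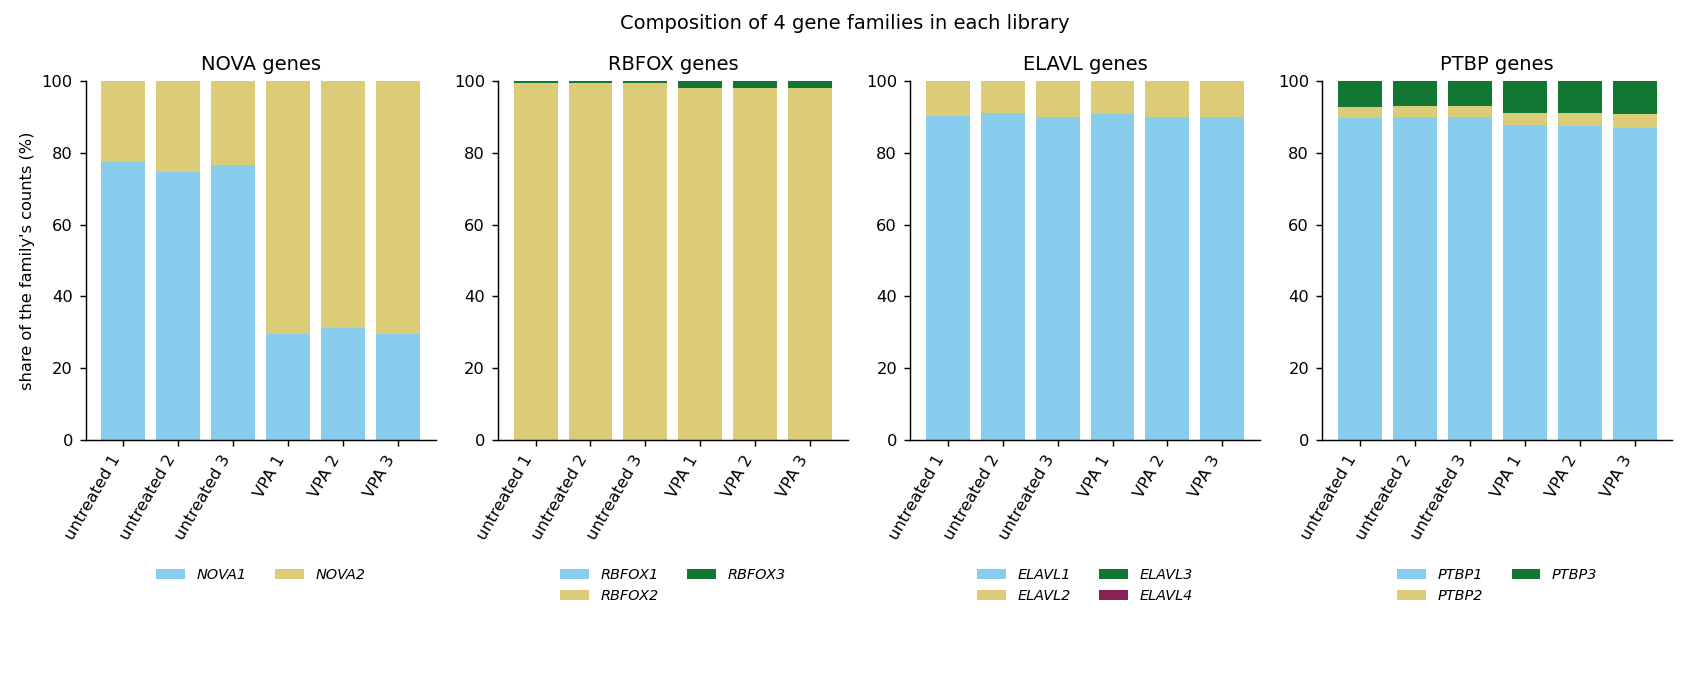
Share of each family's counts (y axis, percent, from 0) taken by its genes in each of the 6 libraries, for the NOVA, RBFOX, ELAVL and PTBP genes. NOVA2 goes from 23.8% to 69.9% of the NOVA counts on average, while RBFOX2, ELAVL1 and PTBP1 keep most of the counts of their families in every library. The shares are of counts and are not corrected for transcript length.

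PTBP1, the general repressor of neuronal exons, was the most abundant of the 10 genes and was counted 19305, 19257 and 18244 times in untreated and 16155, 15542 and 14525 times in VPA-treated libraries. Every VPA-treated library was below every untreated one. The normalized mean was 19765 ± 538 without and 14786 ± 803 with VPA, 0.748 of the untreated level, and PTBP1 fell by 0.42 on the log2 scale (SE 0.045, edgeR adjusted p = 5.45e-08). The fall passed the test under each scaling of the libraries tried, but its size depended on it, with log2 fold changes from -0.43 with DESeq2 size factors to -0.15 with ribosomal protein genes as the reference (edgeR adjusted p = 0.00464). That scaling moves the median of all tested genes to 0.28, from 0.0058. PTBP1 was thus lower than the median gene in each case.

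PTBP2, the neuronal paralog, was counted 698, 655 and 641 times without and 640, 652 and 647 times with VPA, so that the raw counts overlap. The normalized counts were 723, 686 and 673 against 613, 628 and 619, and these do not overlap. PTBP2 had a log2 fold change of -0.16 (SE 0.056, edgeR adjusted p = 0.0155), which did not pass with upper quartile scaling (-0.096, adjusted p = 0.145) or library totals (-0.030, adjusted p = 0.664) and was 0.11 with ribosomal protein scaling (adjusted p = 0.102). Without untreated replicate 1 it was -0.14 (adjusted p = 0.0537), so the call rests on that library too. Within libraries, the log2 ratio of PTBP2 to PTBP1 was -4.83 ± 0.044 without and -4.57 ± 0.085 with VPA, 0.26 higher (exact permutation p = 0.1, adjusted p = 0.233). PTBP3, the third paralog, had a log2 fold change of -0.035 (edgeR adjusted p = 0.537), and its share of the family's counts was 7.06% ± 0.13 untreated and 8.97% ± 0.18 with VPA. PTBP1 still made up 87.4% ± 0.38 of the counts of the family with VPA, against 89.8% ± 0.18 without.

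ELAVL2 (HuB) was the one neuronal Hu gene with a clear level in these cells, counted 443, 415 and 439 times without and 409, 439 and 442 times with VPA. These raw counts overlap, whereas the normalized counts, 459, 434 and 461 against 392, 423 and 423, do not. The normalized mean was 451 ± 14.7 untreated and 413 ± 18.0 with VPA, and the log2 fold change of -0.13 (SE 0.065) did not pass the test (edgeR adjusted p = 0.0903). Scaled to library totals the value was 0.0024 and with ribosomal protein genes 0.14, so that even its sign is not settled. ELAVL1 (HuR), which is expressed in nearly all cells, made up 90.5% of the counts of the family without and 90.2% with VPA. Its log2 fold change was -0.16 (edgeR adjusted p = 0.00159), and 0.11 with ribosomal protein scaling. The log2 ratio of ELAVL2 to ELAVL1 was 0.034 higher with VPA (exact permutation p = 0.5, adjusted p = 0.84).

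The remaining 4 genes were not tested. ELAVL3 (HuC) was counted 1, 0 and 0 times without and 1, 0 and 0 times with VPA. ELAVL4 (HuD), a marker of postmitotic neurons, had 1, 0 and 1 counts without and 2, 4 and 1 with VPA, in sum 2 and 7, a ratio of 3.52 after division by depth (exact 95% interval 0.671 to 34.8). SRRM4 had 0, 1 and 2 counts without and 4, 6 and 0 with VPA, in sum 3 and 10, a ratio of 3.36 (0.864 to 18.97). Both intervals include 1, and the VPA-treated libraries of SRRM4 range over both extremes of all 6. For RBFOX1 the ratio of 1 to 2 counts was 2.01 (0.105 to 119). The intervals cover counting error only, so a difference in these genes was not detectable at this depth. SRRM3, the paralog of SRRM4 that also promotes microexons, was well above them at 83, 76 and 60 counts without and 176, 134 and 178 with VPA, and rose by a log2 fold change of 1.03 (SE 0.14, edgeR adjusted p = 1.05e-06).

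To compare levels between genes, normalized CPM were divided by the length of the canonical transcript in kilobases (GENCODE 44), although the transcript these cells use was not determined. On this per-length scale PTBP1 led in untreated cells at 329 ± 8.97, followed by PTBP2 at 11.2, ELAVL2 at 6.05, NOVA1 at 1.90, NOVA2 at 0.510 ± 0.013 and RBFOX3 at 0.382 ± 0.044. With VPA the order was PTBP1 at 246 ± 13.4, PTBP2 at 9.98, NOVA2 at 6.08 ± 0.13, ELAVL2 at 5.53 ± 0.24, NOVA1 at 3.05 ± 0.18 and RBFOX3 at 1.65 ± 0.078. NOVA2 thus moved from the fifth to the third place. The libraries of neighbours in either order do not overlap, for example NOVA2 (5.92 to 6.16) and ELAVL2 (5.26 to 5.67) with VPA. The other 4 genes had means under 0.04 in both conditions and overlap one another. For scale, RBFOX2 was at 34.9 without and 36.1 with VPA, and ELAVL1 at 37.9 and 33.9, so the paralogs that most tissues express remained above NOVA2 on this scale.

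No shared stretch of at least 50 identical bases with transcripts of other genes was found in the canonical transcripts of 8 of the 10 genes. ELAVL3 shares 256 bases with 1 other gene and SRRM4 62 bases, and 0 of the 10 share such a stretch with another of the 10. The counted genes that overlap ELAVL4, RBFOX1 and PTBP1 in GENCODE 44 had 0 counts in every library.

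A wider list of 26 other splicing regulators, of which 24 were tested, showed where neighbouring families stood. Of these, 5 were up-regulated, RBM24, CELF3, CELF4, CELF5 and SRRM3, and 0 were down-regulated (12.0% and 0.503% of all tested genes). At the adjusted p alone 10 were higher and 9 lower (32.9% and 30.0% of all), and the median log2 fold change was 0.067. Ribosomal protein scaling turned these counts into 15 and 2. RBM24, a regulator of muscle splicing, was counted 5, 11 and 12 times without and 50, 62 and 57 times with VPA. Its log2 fold change was 2.46 (SE 0.25). CELF3, CELF4, CELF5 and CELF6 form a subfamily with mostly neural expression, of which CELF6 did not pass (log2 fold change 0.32, edgeR adjusted p = 0.507). For CELF4 and CELF5 the log2 fold changes were 1.42 (SE 0.16) and 1.21 (SE 0.14), with edgeR adjusted p = 7.02e-08 and 1.75e-07. That of CELF3 was 1.81 (SE 0.30), with only 6, 5 and 9 counts without VPA. RBM24 and CELF3 passed the count filter only through their VPA-treated libraries, so their changes are descriptions. With at least 10 counts required in every library, 21 genes of the list were tested and 3 were up-regulated. CELF1, the widely expressed member, had a log2 fold change of -0.26 (edgeR adjusted p = 1.54e-05), which was 0.014 with ribosomal protein scaling. SRRM2, a scaffold protein of nuclear speckles, fell by 0.55 on the log2 scale (SE 0.044, edgeR adjusted p = 4.46e-10), from 34586 ± 1278 to 23561 ± 602 normalized counts. SRRM2 and its paralog SRRM1, at -0.38, were lower under every scaling tried.

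**Figure D4:**
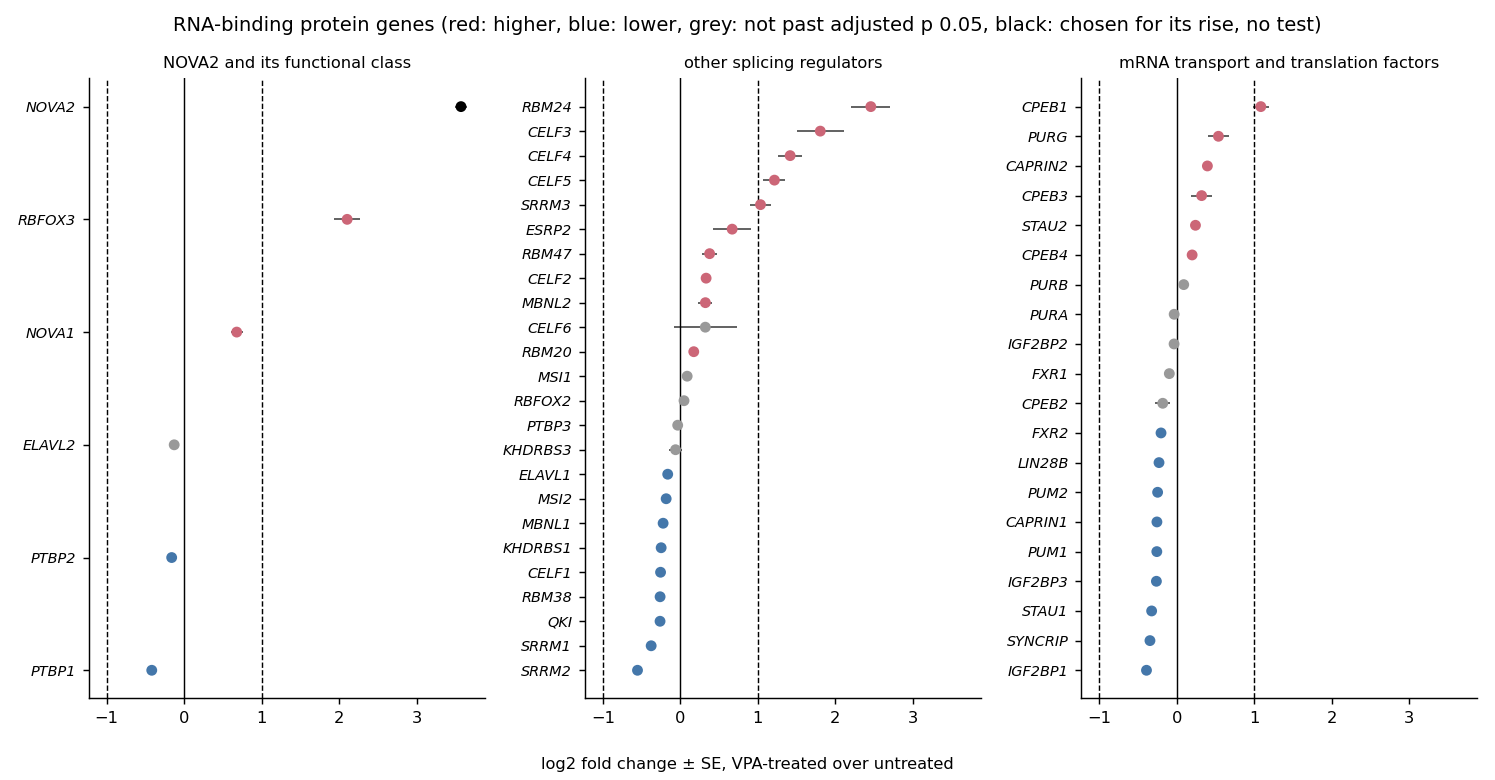
Log2 fold change with SE (x axis) of the tested genes (y axis) among the 10 genes, the other splicing regulators, and the mRNA transport and translation factors. Red and blue mark genes higher and lower at an adjusted p under 0.05, grey those that did not pass, and black NOVA2, which was chosen for its rise; 2 genes of the left panel, 5 of the middle one and 1 of the right one pass a log2 fold change of 1 (dashed line).

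RNA-binding proteins of mRNA transport and translation were measured as a further group. Of 21 listed, 20 were tested, 1 was up-regulated and 0 down-regulated, 6 were higher and 9 lower at the adjusted p (32.9% and 30.0% of all tested genes), and the median log2 fold change was -0.14. Ribosomal protein scaling gave 10 higher, 1 lower and a median of 0.13. CPEB1, which controls cytoplasmic polyadenylation, was counted 89, 88 and 80 times without and 199, 198 and 197 times with VPA, and its log2 fold change was 1.09 (SE 0.10, edgeR adjusted p = 8.76e-09). IGF2BP1, an oncofetal mRNA-binding protein, was the gene that stayed lower under that scaling. Its log2 fold change was -0.39 (SE 0.040, edgeR adjusted p = 2.31e-08), from 8885 ± 216 to 6785 ± 143 normalized counts.

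Transcripts known to be held down by PTBP1 in non-neuronal cells were examined next. All 6 listed were tested, and 6 were higher at the adjusted p and 0 lower (background 32.9% and 30.0% of all tested genes), with a median log2 fold change of 0.79 beside 0.0058 over all tested genes. The counts of 6 and 0 were the same under each alternative setting. The GABA-B receptor subunit GABBR1 was counted 736, 582 and 666 times without and 1348, 1274 and 1354 times with VPA, and the synaptic vesicle protein SV2A 1278, 1264 and 1247 against 2419, 2560 and 2598 times. The groups do not overlap for either gene. The log2 fold change of each was 0.88 (edgeR adjusted p = 1.20e-10 and 2.73e-13). KIF5A, a neuronal kinesin, DLG4, which encodes PSD-95, and VAMP2, synaptobrevin, had log2 fold changes of 0.70, 0.52 and 0.24, and all 3 passed the test. All 9 tested neuron markers were higher at the adjusted p as well. Whether PTBP1 had a part in these changes was not tested.

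Of 8 transcripts with exons known to be regulated by NOVA proteins, 5 were tested, of which 2 were up-regulated, 4 were higher and 1 lower at the adjusted p (12.0%, 32.9% and 30.0% of all tested genes), with a median log2 fold change of 0.80. DAB1, the adaptor of reelin signalling, was counted 6, 11 and 14 times without and 108, 139 and 136 times with VPA. Its log2 fold change was 3.49 (SE 0.22). DAB1 passed the count filter only through its VPA-treated libraries, so its change is a description. With at least 10 counts required in every library, 4 genes of the list were tested and 1 was up-regulated. CACNA1B, the pore subunit of N-type calcium channels, was at 63, 67 and 69 counts without and 245, 233 and 212 with VPA, a log2 fold change of 1.67 (SE 0.11, edgeR adjusted p = 2.66e-11). Both are clear of their untreated values in every library. AGRN, which encodes agrin, was at 0.80 (edgeR adjusted p = 7.94e-06), GPHN, gephyrin, at 0.16 (adjusted p = 0.0317) and APLP2 at -0.30 (adjusted p = 7.55e-06). GPHN did not pass with DESeq2 (adjusted p = 0.161), and APLP2 did not with ribosomal protein scaling (-0.025, adjusted p = 0.627). The number of higher genes in the list was 3 on leaving out untreated replicate 1 or 2, or VPA-treated replicate 2 or 3. The other 3 had too few counts, among them CACNA1A, with 3 counts in sum without and 13 with VPA, and DCC, with 0 and 5. These are amounts of transcript, and the NOVA-regulated exons were not measured.

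Genes known to act on this circuit were measured as well. REST, which represses neuronal genes outside the nervous system, was counted 728, 698 and 627 times without and 662, 750 and 709 times with VPA, and did not pass the test (log2 fold change -0.074, SE 0.063, edgeR adjusted p = 0.319). With ribosomal protein scaling its value was 0.20 (adjusted p = 0.0122). The microRNA miR-124 is known to lower PTBP1 in neurons. Its host gene MIR124-1HG had 1, 0 and 1 counts without and 13, 12 and 26 with VPA, a ratio of 25.7 (exact 95% interval 6.75 to 218). The interval covers counting error only. MIR124-1HG passed the count filter only through its VPA-treated libraries, so its change is a description. MIR124-2HG was listed with 0 counts in all 6 libraries, which allows up to 3 counts in each. MIR9-1HG, a host of miR-9, had 16, 8 and 21 counts without and 45, 57 and 58 with VPA (log2 fold change 1.70, SE 0.24). MIR9-1HG also passed the count filter only through its VPA-treated libraries, so its change is a description too. With at least 10 counts required in every library, neither MIR124-1HG nor MIR9-1HG was tested. The mature microRNAs were not measured by these libraries.

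**Figure D5:**
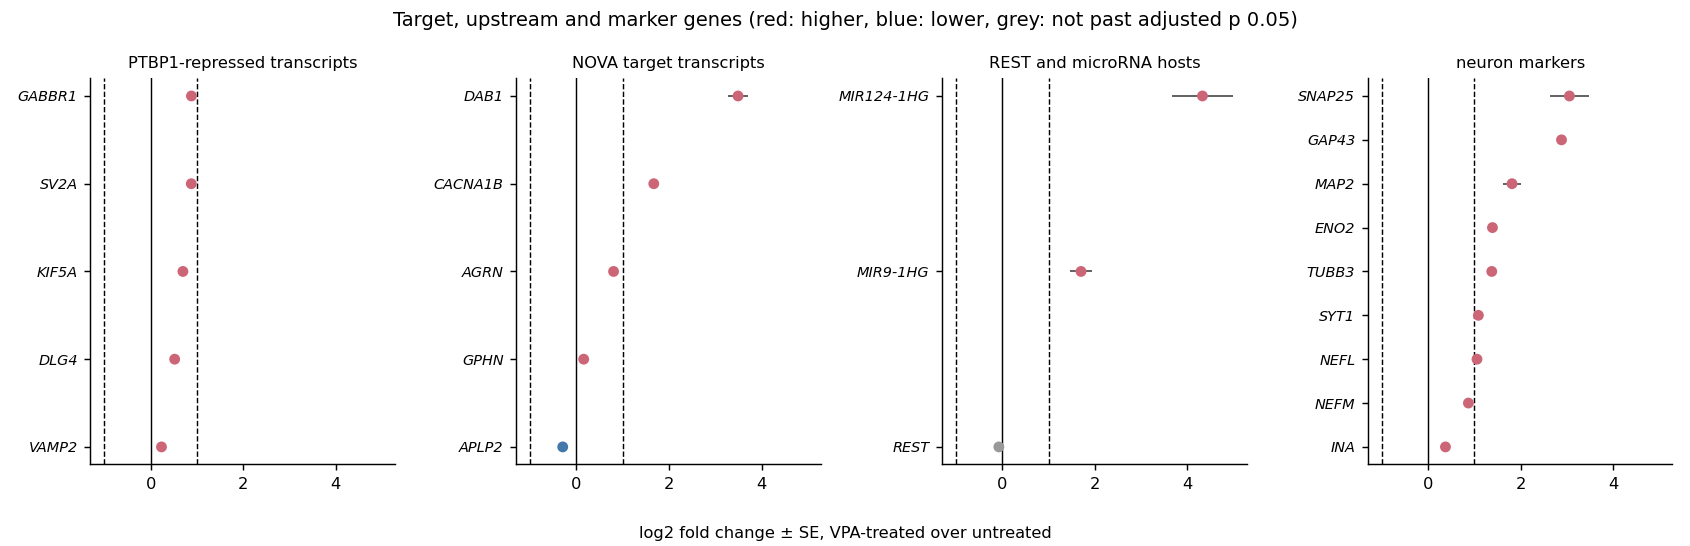
Log2 fold change with SE (x axis) of tested PTBP1-repressed transcripts, NOVA target transcripts, REST and microRNA host genes, and neuron markers (y axis). Red and blue mark genes higher and lower at an adjusted p under 0.05 and grey those that did not pass; all PTBP1-repressed transcripts shown and all 9 tested neuron markers lie to the right of 0, and REST lies near 0.

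Marker genes of neurons and glia were higher with VPA, as were NOVA1, NOVA2 and RBFOX3, whereas PTBP1 was lower. Of 10 neuron markers 9 were tested, of which 7 were up-regulated and 9 were higher at the adjusted p, where 12.0% and 32.9% of all tested genes were, with a median log2 fold change of 1.37. Their summed level was 354 to 374 CPM in untreated and 666 to 711 CPM in VPA-treated libraries. NEFM, the medium neurofilament subunit, had 4062 to 4252 counts without VPA, so these cells already held neuronal transcripts. STMN2, an untested marker, had 2 counts without and 22 with VPA. Of 8 glia markers 6 were tested, and all 6 were higher, 4 of them up-regulated, against the same shares of all genes, with a median of 1.19. Their summed level was 12.9 to 13.9 CPM without and 28.2 to 29.4 CPM with VPA, and SOX10 had 0 counts in every library. In the neuron and the glia list, part of the tested genes passed the count filter only through VPA-treated libraries, so these counts are descriptions. With at least 10 counts required in every library, 6 of 8 tested neuron markers and 2 of 4 tested glia markers were up-regulated. All of these were still higher at the adjusted p, with median log2 fold changes of 1.25 and 0.89. The embryonic kidney markers, 2 higher and 3 lower of 7 tested, included 1 up-regulated gene, the transcription factor PAX2 (log2 fold change 2.26, edgeR adjusted p = 6.80e-12), and had a median log2 fold change of 0.025 and a summed level of 171 to 178 CPM without and 144 to 149 CPM with VPA. The part of a change in cell state in the results for NOVA2, NOVA1, RBFOX3 and PTBP1 was not tested.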

How the data were processed

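The deposited data are raw whole-number counts of reads per gene for 6 libraries of HEK293T cells, 3 untreated and 3 VPA-treated, grouped by their labels. According to the methods and the submitters' processing notes, the authors used SOAPnuke to clean the reads and STAR (2.7.10b in the notes) to place them on hg38, and counted them per gene with HTSeq (2.0.1 in the notes). The deposited counts carry no normalization, and the annotation and strand setting of the counting are not given in the sources used here. Summary lines that name no gene were left out, at 6.80% to 7.69% of the listed reads for those off any gene, 1.97% to 2.10% for ambiguous ones and 2.81% to 2.92% for those aligned to several places.

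The quasi-likelihood test of edgeR 4.0.16 (R 4.3.3) was run with the robust option, condition as the only term, TMM scaling, a prior count of 0.125, the filterByExpr filter at a minimum count of 10, and p-values adjusted by Benjamini-Hochberg. The test was fitted on all 15298 genes that passed the filter and was also tested on simulated data. The SE was derived from the log2 fold change and the square root of F. Log2 ratios of paralogs took 0.5 added to each count and a two-sided exact permutation test. Depth differed little between libraries, and thinly counted genes have wide errors. The alternatives were DESeq2 1.42.0, other scalings (its size factors, the median ribosomal protein gene, the upper quartile, or the library totals), no filter or at least 10 counts in every library, a prior count of 2, the replicate number as a block, leaving out each library, and 0.125 added in the ratios.

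The 10 genes and the gene lists were chosen with earlier results of these data known, so that counts over a list are descriptions. Named were the 10 genes, genes of the lists that were called or among the 4 others with the most counts, the 5 genes nearest to NOVA2 in pattern, and its 3 nearest tested neighbours on each side; CELF1, SRRM1, PTBP3, CELF6, DLG4, DCC, PAX8 and SOX10 fall outside it and were named after their values were seen. Promoters and coordinates are from RefSeq (GRCh38.p14), transcript lengths from GENCODE 44. Splicing, chromatin and imaging data were not analysed here, and a few listed genes are counted in their lists but not reported here by name.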

Additional observations from a re-analysis of the deposited data

How the results depend on the processing

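The counts of up-regulated (2) and down-regulated (0) genes among the 10 were the same under all 15 alternatives. The count past the adjusted p was 5, or 4 with upper quartile, library totals, ribosomal protein scaling or without untreated replicate 1, in each case without PTBP2. NOVA1, RBFOX3 and PTBP1 kept their direction and passed the test in every alternative. ELAVL2 changed sign when scaled to library totals (0.0024) or ribosomal protein genes (0.14), and PTBP2 with the latter (0.11); the cause was not tested. Of the other splicing regulators 3 were up-regulated with at least 10 counts in every library, since CELF3 and RBM24 were then not tested, 6 without a filter, and 4 without untreated replicate 3, VPA-treated replicate 1 or VPA-treated replicate 3, against 5 otherwise. Leaving out each library, the log2 ratios ranged from -0.021 to 0.094 for ELAVL2 to ELAVL1, from -0.46 to 0.57 for ELAVL3 to ELAVL1 and from -1.002 to 1.05 for SRRM4 to SRRM3, the latter pairs resting on 2 and 13 counts.

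The replicate numbers were not taken to pair the libraries. The labels name no shared batch, and deviations of same-numbered libraries correlated at 0.139, 0.0214 and 0.0805, others at -0.107 to 0.0308, and untreated replicate 2 lay nearest to VPA-treated replicate 3. Replicates 2 and 3 were the closest pair in both conditions (chi-square per gene 2.06 untreated and 1.70 with VPA), and whether replicate numbers share a source was not tested. With the replicate number as a block, 2 of the 10 genes were up-regulated, NOVA1 was at 0.68, PTBP1 at -0.42, and 1835 genes in all were up-regulated against 1833 without it. The SE of PTBP1 was 0.029 with the block and 0.045 without. The edgeR adjusted p of ELAVL2 was 0.053 with it and 0.0903 without. Depth leaves ELAVL3, ELAVL4, RBFOX1 and SRRM4 without a usable comparison.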
